A study of Mus musculus with 11 samples.

Results

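Thymic epithelium of NOD mice homozygous for the R249C variant of Aire was compared with thymic epithelium of NOD mice with wild-type Aire. Genotype was taken from the sample titles, which gave 3 R249C/R249C and 3 WT/WT libraries, 6 of the 11 libraries of the study; the other 5 were WT/R249C. NOD is an inbred strain prone to autoimmune diabetes, and both groups were mice of 4 to 8 weeks with no treatment named. CD45-bearing blood cells were depleted with magnetic beads and EpCAM-positive cells were then sorted, so the libraries, made from low-input total RNA, cover cortical and medullary epithelium together. How the allele was made, and the sex and number of mice behind a library, are not given in the sources used here, and p-values therefore reflect how libraries of a genotype vary. All 3 R249C/R249C libraries and WT/WT replicate 1 belong to batch A of the labels, and WT/WT replicates 2 and 3 belong to batch B. Genotype and batch can therefore be told apart only through WT/WT replicate 1 and through the WT/R249C libraries, which lie in both batches. The labels of the WT/R249C libraries of batch B, replicates 4 and 5, contradict each other (R249C/R249C in the genotype field), and the fits were also run without them.

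Aire is a nuclear protein of mature medullary thymic epithelial cells that switches on genes otherwise restricted to single tissues, such as insulin, milk proteins or lung surfactant. Developing T cells that react with these antigens are removed or become regulatory T cells. Aire works in large complexes at chromatin, partly by releasing paused RNA polymerase II, and its SAND domain contributes to the assembly of these complexes; dominant variants of that domain are known in people. Part of the medullary epithelium goes on to resemble differentiated cells of other tissues, such as tuft, muscle or ciliated cells, and these are called mimetic cells.

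R249C names a replacement of arginine by cysteine. The reference coding sequence is shown to place it, with the codon of that residue in capitals; it comes from the GENCODE transcripts of the C57BL/6J reference (release M21), in which every coding Aire transcript that reaches the residue has the same codon.
Aire coding sequence, bases 715 to 777: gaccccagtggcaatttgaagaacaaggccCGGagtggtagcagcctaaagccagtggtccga
The codon is one of arginine. The deposited table counts reads per gene, so which base a library carries there was not analysed here.

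Each value below is a level in CPM, the counts put on the same library size by the TMM method, and is listed for replicates 1, 2 and 3 in this order; CPM is not per gene length, so levels are compared between libraries and not between genes. Total counts ran from 91946272 to 182319976 over the 6 libraries, and the TMM factors from 0.944 to 1.05. Mitochondrial genes took 3.04% to 6.09% of the counts. Log2 fold changes are R249C/R249C against WT/WT. The first of each pair comes from 11 libraries fitted with a batch term, the second from the 6 libraries fitted with no such term. Intervals are at 95%.

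The targeted gene was transcribed in every library. Aire (chromosome 10) stood at 318, 391 and 733 CPM in WT/WT and at 671, 319 and 853 CPM in R249C/R249C. The groups overlapped: the lowest R249C/R249C library matched the lowest WT/WT library, and the highest of all was R249C/R249C replicate 3. The log2 fold change was 0.57 (-0.95 to 2.09) with the batch term and 0.36 (-0.77 to 1.49) without it, so a change of either direction lies within the intervals. A missense change leaves the transcript in place, so this level does not check the genotype labels. Of the 29 genes in the list of Aire and the proteins it works with, 11 had a positive and 18 a negative fold change, with a median of -0.18 (0.01 without the batch term) beside -0.02 (-0.01) over all genes tested; none reached an unadjusted p under 0.05 in either fit, a threshold passed by 1.7% and 1.51% of all genes in the higher and lower direction with the batch term. Among them Smarca4, the ATPase of a chromatin remodelling complex, was at 236, 149 and 209 against 167, 138 and 155 CPM, and Prkdc, the catalytic subunit of the DNA-dependent protein kinase that binds Aire, at 9.6, 20.9 and 15 against 14.1, 17.9 and 21.7 CPM. The libraries of the groups overlapped for both. Atf7ip, part of a complex that recruits Aire to methylated DNA, was higher in each R249C/R249C library than in any WT/WT library, at 127, 118 and 141 CPM in WT/WT and 156, 269 and 148 CPM in R249C/R249C (log2 fold change 0.62 and 0.58, unadjusted p = 0.217 and 0.078). With library totals alone, without TMM, its groups overlapped. Of the 29 genes, 2 were wholly above and 0 wholly below, beside 4.17% and 3.95% of all genes.

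Epithelial markers were present in all 6 libraries. Epcam, the surface protein of the sort, was at 374, 379.5 and 429 CPM in WT/WT and 494, 357 and 436 CPM in R249C/R249C. The cortical gene Psmb11, a catalytic subunit of the thymoproteasome, was at 50.8, 63.3 and 49.3 and 61.1, 68.4 and 49.9 CPM, and the basal keratin Krt5, of immature medullary cells, at 815, 849 and 624 and 708, 893 and 1173 CPM. Ptprc, which encodes the CD45 that was depleted, remained at 26.7, 13.6 and 21.7 CPM in WT/WT and 12.2, 17.6 and 6.91 CPM in R249C/R249C, so CD45 transcripts were left in all 6 libraries.

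No gene passed the test between the genotypes. With the batch term, edgeR's quasi-likelihood test found 0 of 26980 genes (0%) at a Benjamini-Hochberg adjusted p under 0.05. An unadjusted p under 0.05 was reached by 458 genes that were higher (1.7%) and 407 that were lower (1.51%). In the 6 libraries without the batch term, 0 of 23226 genes (0%) passed the adjusted and 618 (2.66%) the unadjusted threshold. By limma voom 0 genes passed in both designs. DESeq2 called 158 of 25063 genes higher (0.63%) and 250 lower (0.997%) with the batch term, and 66 higher and 62 lower without it. Gene levels lay above all WT/WT libraries in every R249C/R249C library for 1124 genes (4.17%) and below for 1065 (3.95%). The genes named next are therefore those of smallest unadjusted p, each with its library values; their edgeR adjusted p was 1 with the batch term and at least 0.977 without it.

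The 15 genes of smallest p with higher levels in R249C/R249C included Hnrnpdl, Pdcd11, Cpsf3 and Rpl22l1. Hnrnpdl (chromosome 5), an RNA-binding protein of the hnRNP family that acts in splicing, stood at 58.3, 81.1 and 84.8 CPM in WT/WT and 116, 123 and 139 CPM in R249C/R249C. Every R249C/R249C library was higher than every WT/WT library, and the log2 fold change was 1.06 (0.60 to 1.52) and 0.76 (0.27 to 1.25). Pdcd11 (chromosome 19), a nucleolar protein of ribosomal RNA processing, was at 5.06, 16.9 and 17.5 against 31.6, 24.7 and 25 CPM, also without overlap. Its fold change depended on WT/WT replicate 1, the lowest library: 1.93 (1.08 to 2.78) with the batch term, 1.05 (-0.19 to 2.29) without it, and 0.66 in the 6 libraries less that replicate. Cpsf3, the nuclease that cuts messenger RNA at its 3' end, shared this shape with 53.2, 103 and 93.3 against 109, 110.0 and 133 CPM (0.86 and 0.50), and so did Rpl22l1, a paralog of a ribosomal protein, with 24.7, 42.6 and 47 against 49, 58.7 and 71.1 CPM (1.01 and 0.65). In each of the last 3 genes WT/WT replicate 1 lay well under the other WT/WT libraries. With library totals alone, without TMM, the groups overlapped for Rpl22l1.

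Relatives of these genes went both ways. Of the 20 hnRNP genes, 11 had a positive and 9 a negative fold change, with a median of 0.11 (0.07 without the batch term); at an unadjusted p under 0.05, Hnrnpdl was higher and Hnrnpul1 lower, the latter at 208, 131 and 136 against 149.8, 101 and 131 CPM. Of the 18 ribosome assembly genes, 9 had a positive and 9 a negative fold change, with a median of 0.03 (0.13). Another without overlap was Nop14, of the small subunit processome, at 27.6, 20.1 and 24.8 against 37.6, 37.8 and 41.8 CPM (0.57 and 0.70). Both lists were drawn up because Hnrnpdl and Pdcd11 had stood out in these data, so their leading members are no independent result.

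Ensa, Lats1, Hsd3b7 and Kdm3a were further genes of the higher group. Ensa (chromosome 3), which as a phosphoprotein inhibits the PP2A-B55 phosphatase during mitosis, was at 24.9, 27.7 and 27.7 against 41.1, 52 and 86.7 CPM (1.27 and 1.17). The WT/WT libraries were close together and the R249C/R249C libraries spread above them. Lats1 (chromosome 10), a kinase of the Hippo pathway, was at 15.3, 19.96 and 27.3 against 42.2, 41.7 and 35.7 CPM (1.31 and 0.94). Hsd3b7 (chromosome 7), a steroid dehydrogenase that turns oxysterols towards bile acids, was at 13.8, 7.58 and 12.5 against 26.2, 31.9 and 36.7 CPM, with log2 fold changes of 1.64 (0.72 to 2.56) and 1.49 (0.66 to 2.32). All R249C/R249C libraries exceeded all WT/WT libraries in Lats1 and Hsd3b7. Of the 10 oxysterol genes tested, 7 had a positive fold change (median 0.44 and 0.32), among them Ch25h, which makes 25-hydroxycholesterol, at 29, 16.7 and 15.6 against 25.1, 41.8 and 41.2 CPM; the Ch25h libraries overlapped. Kdm3a (chromosome 6), a demethylase of histone H3 lysine 9, was at 40.4, 50.4 and 52 against 86, 74.1 and 58.8 CPM (0.94 and 0.62), whereas 12 of the 17 histone demethylases had a negative fold change (median -0.31 and -0.23), including the X-linked Kdm5c at 136, 116 and 126 against 104, 63.4 and 80.8 CPM (-0.72 and -0.60).

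**Figure D1:**
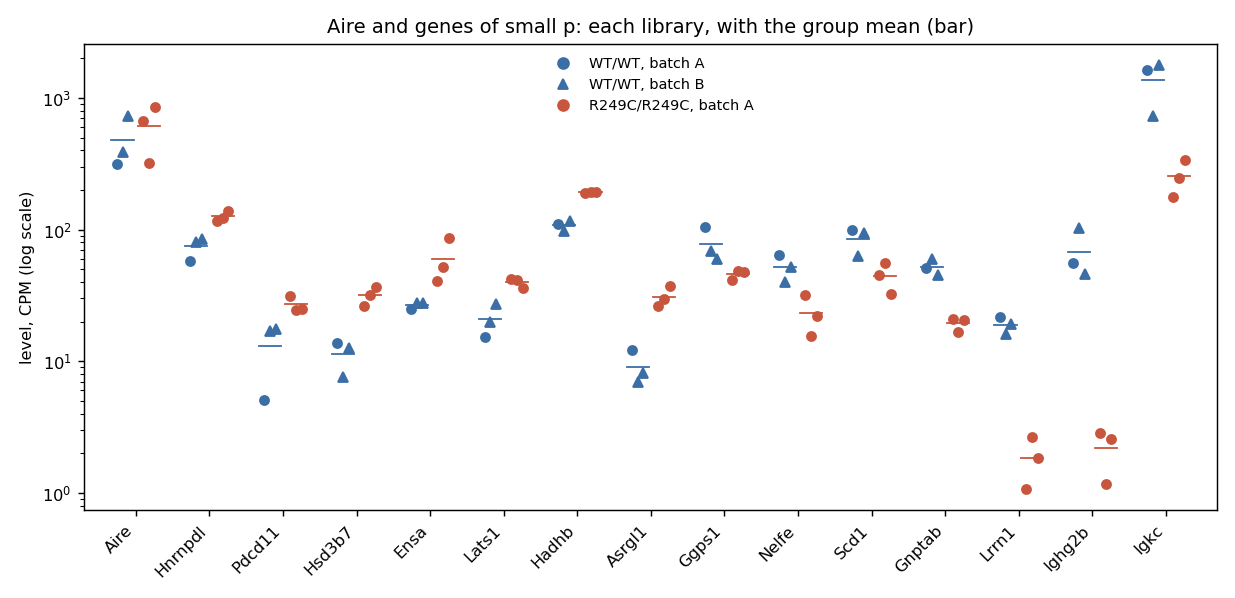
Level of Aire and of 14 genes of small p in each library (CPM, log axis): blue for WT/WT, red for R249C/R249C, circles for batch A, triangles for batch B, bars for group means. Aire overlaps between the groups, Hadhb is nearly constant within each group, and Lrrn1, Ighg2b and Igkc are lower in all 3 R249C/R249C libraries.

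The higher group also held Lysmd4, Helz2, Lin7c, S1pr3, Grhl1 and Asrgl1. Asrgl1 (chromosome 19), an asparaginase, was at 12.1, 6.9 and 8.12 against 26.5, 29.6 and 37.1 CPM and had similar fold changes in both fits, 1.53 (0.58 to 2.47) and 1.78 (0.95 to 2.62). Helz2, a helicase that also acts as a nuclear receptor coactivator, was at 10.9, 17.7 and 16.1 against 26, 34.7 and 40.2 CPM (1.39 and 1.18), and Lysmd4 at 3.76, 13.2 and 9.29 against 14.7, 26.2 and 28.6 CPM (2.08 and 1.41). Groups did not overlap for these 3 genes. Lin7c, a scaffold protein of cell junctions, was at 105, 94.1 and 156 against 185, 185 and 169.8 CPM, and Grhl1, a transcription factor of stratified epithelia, at 41.5, 57.1 and 58.3 against 65.9, 77.8 and 62 CPM. S1pr3, a receptor for sphingosine-1-phosphate, overlapped, at 35.3, 51.5 and 100.5 against 109.5, 106 and 68.2 CPM; it was the 1 gene of the 15 that did.

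Without the batch term the ranking changed and brought up Hadhb (chromosome 5), the beta subunit of the mitochondrial trifunctional protein that oxidises fatty acids. Hadhb was at 109.6, 98.1 and 117 CPM in WT/WT and 191, 195 and 192 CPM in R249C/R249C; the values within each group lay close together. Its log2 fold change was 0.84 (0.47 to 1.20) without the batch term and 0.91 (-0.04 to 1.87) with it. The WT/R249C libraries, which enter the fit with the term, were at 191, 212, 64.5, 195 and 165 CPM for replicates 1 to 5, and replicate 3, of batch A, was the lowest of all 11 libraries. Xrcc2, Asrgl1, Arhgap36 and Casp14 were the other higher genes of smallest p in that fit.

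Xrcc2 (chromosome 5), a protein of homologous recombination, had no count in any WT/WT library and stood at 5.25, 6.39 and 4.88 CPM in R249C/R249C, at least 771-fold higher against a floor of 3 counts over the WT/WT group. In the WT/R249C libraries it was at 4.7, 5.75, 0, 5.01 and 8.51 CPM, so a level of 0 also occurred outside WT/WT. Arhgap36 (X chromosome), a GTPase-activating protein that promotes Hedgehog signalling, was at 0 in WT/WT and at 7.38, 2.99 and 5.81 CPM in R249C/R249C (at least 753-fold higher). Casp14 (chromosome 10), the caspase of the skin barrier, was at 0 in WT/WT and at 1.62, 4.33 and 2.93 CPM in R249C/R249C (at least 411-fold higher). These 3 genes belong to 64 tested genes counted in all 3 R249C/R249C libraries and in no WT/WT library; 76 genes showed the reverse. Of the 64, 26 carry gene names rather than model numbers, and of the 76, 45 do, 11 of them immunoglobulin segments. Floors cover counting error only, and levels of 0 in single libraries also occurred within a group: Hnf4a, a liver and gut regulator, was at 3.35, 0 and 0.0157 CPM within WT/WT.

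Genes of smallest p with lower levels in R249C/R249C included Ggps1, Scd1 and Gnptab. Ggps1 (chromosome 13), which makes geranylgeranyl diphosphate for protein prenylation, was at 104, 68.7 and 59.4 CPM in WT/WT and 41.6, 48.5 and 47.6 CPM in R249C/R249C, with log2 fold changes of -1.18 (-1.68 to -0.69) and -0.75 (-1.39 to -0.11). Scd1 (chromosome 19), the desaturase that makes monounsaturated fatty acids, was at 98.8, 63.1 and 94.4 against 44.9, 55.4 and 32.6 CPM (-1.15 and -0.94). Gnptab (chromosome 10), which starts the mannose-6-phosphate tag of lysosomal enzymes, was at 51.5, 60.3 and 45.3 against 21, 16.7 and 20.6 CPM (-2.15 and -1.42). Each of these 3 genes was lower in all R249C/R249C libraries. The mevalonate pathway, to which Ggps1 belongs, had 6 positive and 11 negative fold changes among 17 genes (median -0.22 and -0.35). Srebf2, its main transcription factor, was at 190.4, 124 and 192 against 152, 80.3 and 105 CPM and Mvk, mevalonate kinase, at 10.4, 28.5 and 16.8 against 7.6, 1.26 and 9.45 CPM, whereas Hmgcs1, its first committed synthase, lay the other way at 44.4, 73.6 and 69.3 against 86.4, 96.2 and 76.9 CPM. The WT/WT and R249C/R249C libraries were apart for Mvk and Hmgcs1 and overlapped for Srebf2.

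Nelfe, Ino80d, Rnf123, Ap3d1, Stt3b and Arhgap45 were also among the 15 lower genes. Nelfe (chromosome 17), a subunit of the complex that holds RNA polymerase II in its pause, was at 63.7, 40.3 and 52.4 CPM in WT/WT and 31.9, 15.7 and 21.9 CPM in R249C/R249C (-1.32 and -1.17). Ino80d, a subunit of the INO80 chromatin remodeller, was at 54.1, 37.9 and 45 against 28.5, 35.3 and 24.6 CPM, and Rnf123, a ubiquitin ligase, at 66.1, 80.2 and 56.1 against 46.6, 31.2 and 26.3 CPM. All 3 were lower in every R249C/R249C library. Ap3d1, of the AP-3 adaptor that sorts proteins to lysosomes, was at 129, 117 and 105 against 103, 79.6 and 75.3 CPM (-0.69 and -0.44), and Stt3b, a catalytic subunit of N-glycosylation, at 219, 136 and 172 against 154, 135 and 145 CPM (-0.67 and -0.28). Stt3b was the 1 gene of the 15 whose groups overlapped. Arhgap45, a GTPase-activating protein abundant in blood cells, was at 69.1, 14.6 and 33.2 against 14.5, 8.0 and 9.59 CPM, with WT/WT replicate 1 far above the rest.

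Ly6g5b, Abhd16a and Nelfe lie near each other in the class III region of the major histocompatibility complex on chromosome 17. Ly6g5b, of the Ly6 family, was at 1.71, 2.8 and 3.01 CPM in WT/WT and at 0 in every R249C/R249C library, at least 264-fold lower. Abhd16a, a lipid hydrolase, was at 229.7, 157 and 169 against 127, 139 and 129 CPM (-0.67 and -0.49). The 50 nearest tested coding genes around Abhd16a, a centre chosen after its value was seen, had 3 genes wholly above and 5 wholly below, where 4.17% and 3.95% of all genes were, with a median log2 fold change of 0.02; the 50 around Aire itself, on chromosome 10, had 4 above and 1 below, with a median of 0.15. Without the batch term these medians were -0.09 and 0.07. Gene order was taken from the GRCm38 annotation.

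Immunoglobulin genes, transcribed by B lineage cells and not by epithelium, had lower sums in R249C/R249C. The 13 constant chain genes with the J chain summed to 3385, 3399 and 5944 CPM in WT/WT and to 435.5, 879.3 and 938.7 CPM in R249C/R249C. Kappa variable segments summed to 649.9, 267.8 and 797.4 against 62.94, 116.6 and 112.2 CPM, and heavy chain variable segments to 236.3, 323.3 and 631.9 against 45.51, 46.5 and 101.3 CPM. All 3 sums were lower in each R249C/R249C library than in any WT/WT library, WT/WT replicate 1 of batch A included. The sum of the 3 lambda variable segments overlapped, at 29.69, 711 and 610.6 against 0.707, 206.7 and 16.54 CPM, with WT/WT replicate 1 below R249C/R249C replicate 2. The WT/R249C libraries, at 133.3, 190.9, 603.4, 137.3 and 120.4 CPM for the constant chains, also lay below all 3 WT/WT libraries, in batch B as in batch A.

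Single chains followed this order. Igkc, the kappa constant chain, was at 1641, 733 and 1778 against 176, 247 and 339 CPM, with a log2 fold change of -2.88 (-4.28 to -1.48) and -2.44 (-3.48 to -1.40). Ighg2b, an IgG heavy chain, was at 55.8, 102 and 46.1 against 2.83, 1.16 and 2.57 CPM (-4.12 and -4.95). Igha, the IgA heavy chain, was at 831, 1062 and 2139.7 against 156, 185 and 260.1 CPM. Its log2 fold change was -5.46 (-11.75 to 0.83) and -2.74 (-3.78 to -1.70), so with the batch term the interval includes no change. The WT/R249C libraries, which enter that fit, were at 0, 64.0, 106, 2.52 and 3.31 CPM for Igha. Jchain, which joins IgA and IgM units, was at 671, 619.7 and 1037 against 62.2, 178 and 178 CPM (-5.54 and -2.47). Ighm, the IgM heavy chain, had the smaller gap, at 17.6, 28.6 and 27.7 against 16.9, 12 and 17.1 CPM (-0.57 and -0.68). Of the 12 constant chain genes tested, 7 were lower in all R249C/R249C libraries and none higher, beside 3.95% and 4.17% of all genes; the list was set up with this pattern known. The J segment Igkj5 was at 18.2, 7.36 and 7.05 against 0.189, 0.417 and 0.627 CPM. Single variable segments are uncertain, since they resemble each other and reads may be split among them: Igkv6-23 was at 53.5, 56 and 0.565 CPM in WT/WT; nearly all of it came from 2 libraries. Fewer cells of a type and less RNA per cell cannot be told apart in these bulk samples.

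The sum of other B lineage genes was lower by less than the immunoglobulin sums. The 15 genes of the B and plasma cell list summed to 145.9, 134.1 and 182.8 CPM in WT/WT and 93.11, 66.45 and 126.2 CPM in R249C/R249C, without overlap, and 11 of the 14 tested had a negative fold change (median -0.75 and -0.69). In the WT/R249C libraries the sum was 113.5, 88.21, 194.6, 117.5 and 77.07 CPM, so replicate 3 exceeded every WT/WT library. Mzb1, a chaperone of antibody secretion in plasma cells, was at 11.5, 19.9 and 37.7 against 0.867, 1.49 and 3.22 CPM, Ms4a1, the CD20 protein of B cells, at 2.21, 5.16 and 0.607 CPM against 0 in all 3 libraries (at least 236-fold lower), and Cd79a, of the B cell receptor, at 10.3, 6.97 and 8.05 against 3.81, 5.01 and 0 CPM. Groups were apart for all 3. Of the 14 tested, 4 lay below in every R249C/R249C library and 0 above, beside 3.95% and 4.17% of all genes. Derl3, an endoplasmic reticulum protein of secretory cells, lay the other way at 2.94, 0.291 and 6.27 against 5.29, 8.69 and 8.4 CPM, with overlap.

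Most thymocyte genes had negative fold changes: the sum of 22 genes was 596.6, 370.7 and 441.1 CPM in WT/WT and 427.1, 348.2 and 248.3 CPM in R249C/R249C, with overlap, and 17 of 21 fold changes were negative (median -0.86 and -0.53). Cd3g, of the T cell receptor complex, was at 51, 20.1 and 34.4 against 15.6, 14.6 and 9.44 CPM (-1.82 and -1.41), and Lck, its kinase, at 104, 89.1 and 76 against 77.2, 63.4 and 38.9 CPM (-0.86 and -0.58). Cd3g did not overlap between the groups, and Lck did. The coreceptor gene Cd4, at 2.66, 5.42 and 7.62 against 12.3, 16.3 and 25.2 CPM, and Zap70, a kinase of T cell receptor signalling, at 2.31, 2.89 and 3.3 against 7.55, 8.1 and 4.67 CPM, went against the list and lay above in all R249C/R249C libraries; both are named after their values were seen. The list thus had 1 of 21 genes wholly below and 2 wholly above, beside 3.95% and 4.17% of all genes. The sums of myeloid (17 genes), fibroblast (14) and endothelial (11) markers overlapped as well. Their medians were 1.22, 0.14 and 0.23 with the batch term and -0.07, 0.14 and 0.18 without it. The part of these cells in the other differences was not tested.

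**Figure D2:**
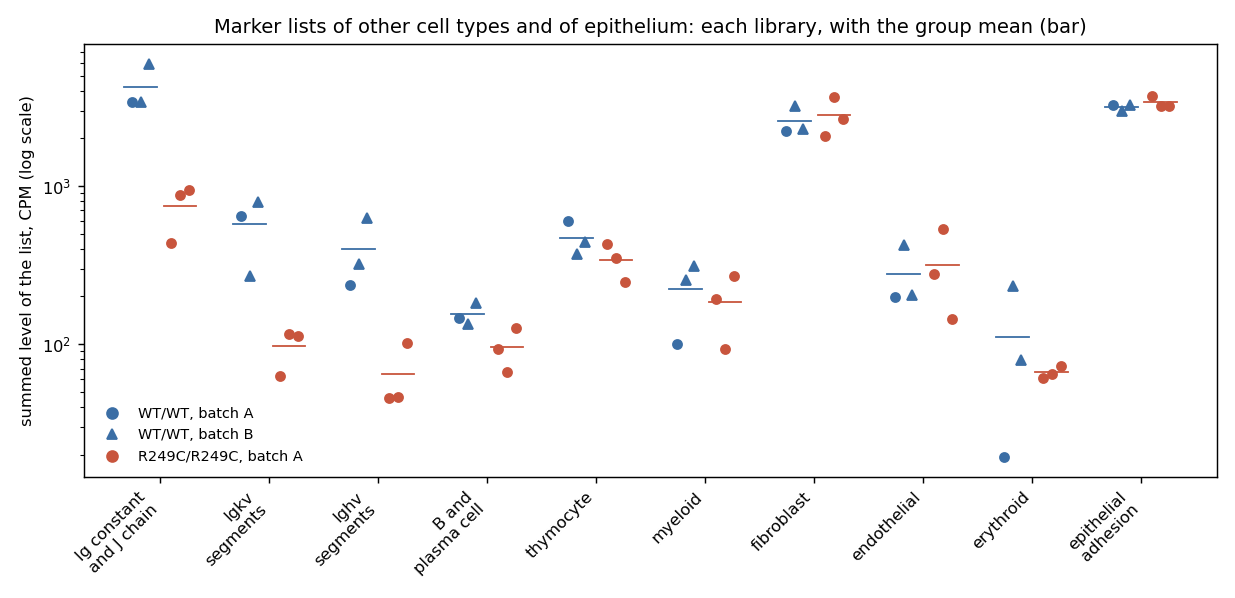
Summed level of each marker list in each library (CPM, log axis), with blue for WT/WT, red for R249C/R249C, circles for batch A, triangles for batch B and bars for group means. The 3 immunoglobulin sums and the B and plasma cell sum do not overlap between the groups, while the thymocyte, myeloid, fibroblast, endothelial, erythroid and epithelial sums do.

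Most cortical epithelial genes had positive fold changes: 13 of 15 fold changes were positive with the batch term (median 0.59) and 12 without it (median 0.23), and 5 and 1 genes were higher at an unadjusted p under 0.05, beside 1.7% of all genes with the batch term. Without that term and R249C/R249C replicate 2 the median was 0.08. Enpep, a peptidase of the cell surface, was the 1 cortical gene of 15 without overlap, near the 4.17% of all genes, at 19.3, 15.7 and 21.1 against 26.2, 44.5 and 34.5 CPM (0.97 and 0.91). Ccl25, the chemokine that draws thymocytes, was at 182, 467 and 387 against 449, 626 and 303 CPM (1.13 and 0.42), and Foxn1, the master regulator of thymic epithelium, at 59.2, 159.8 and 180.3 against 182, 132 and 153 CPM (0.81 and 0.23). For both, WT/WT replicate 1 was the lowest of the 6 libraries and the others overlapped. Prss16, the thymus-specific serine protease, was at 480.0, 568 and 563 against 586, 691 and 367 CPM, again with overlap.

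Mature medullary genes had 16 positive and 3 negative fold changes with the batch term (median 0.57) and 15 and 4 without it (median 0.23, or 0.02 less WT/WT replicate 1). H2-Eb1, a class II chain, was at 528, 844 and 975 against 1062, 1161 and 1342 CPM (0.97 and 0.61), higher in all R249C/R249C libraries. With library totals alone, without TMM, its groups overlapped. Cd80, a costimulatory ligand, overlapped at 11.5, 44 and 23.1 against 43.3, 11.7 and 72.3 CPM. Ccl22, a chemokine for T cells and dendritic cells, was the list member lower in all R249C/R249C libraries, at 52.6, 80.9 and 49.9 against 27.7, 15.3 and 19.8 CPM (-1.19 and -1.54, unadjusted p = 0.0434 and 0.0034). Fezf2, the second regulator of tissue antigens in these cells, was at 128, 299 and 406 against 517, 193 and 360.2 CPM, with overlap.

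All 13 class I and peptide loading genes had positive fold changes with the batch term (median 0.34) and 10 without it (median 0.09). Tap2, of the peptide transporter, was at 276, 306 and 316 against 418, 375 and 432 CPM (0.51 and 0.45, unadjusted p = 0.0342 and 0.0219) and Erap1, which trims peptides, at 89.4, 39.6 and 92.3 against 135, 172 and 92.6 CPM; these 2 of 13 did not overlap between the groups, beside 4.17% of all genes above. B2m, the light chain of class I, was at 643, 1677 and 1718 against 1608, 2085 and 3170.2 CPM, with 1 WT/WT library far below the other 2. Of the 34 proteasome subunits, 25 had a positive fold change with the batch term (median 0.19) and 20 without it (median 0.01). Psmb4 illustrates the difference, at 53.4, 108 and 109 against 113, 104 and 120.2 CPM (0.83 and 0.33): WT/WT replicate 1 was low and the others overlapped.

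Of the 14 tested antigens commonly used to read out Aire, 0 had libraries apart, beside 4.17% above and 3.95% below among all genes. By edgeR 0 had an unadjusted p under 0.05 (1.7% and 1.51% of all genes), and DESeq2 called 0 (0.63% and 0.997%). With 14 genes, counts of 0 are near these shares. Their fold changes turned with the batch term, with 9 positive and 5 negative with it (median 0.82) and 4 positive and 9 negative without it (median -0.45). The insulin gene Ins2 was at 2.39, 0.711 and 1.99 CPM in WT/WT and 0.462, 0.825 and 2.11 CPM in R249C/R249C, and Ins1 had no count in any of the 6 libraries. The casein Csn2 was at 22.9, 94.2 and 99.1 against 85.9, 75.3 and 79.9 CPM. Its R249C/R249C libraries sat between the low WT/WT replicate 1 and the other WT/WT libraries, which gave fold changes of 1.04 (-0.94 to 3.01) and 0.16 (-1.12 to 1.45). Bpifb1, a secreted protein of airways and a target of lung autoimmunity, was at 4.73, 6.02 and 17.9 against 9.71, 6.08 and 25.9 CPM (2.20 and 0.54). Islet genes had a median of 0.84 over 7 genes with the batch term and -0.59 over 6 without it. The islet amyloid gene Iapp was at 0.907, 4.19 and 9.34 against 3.95, 5.11 and 4.93 CPM, with overlap.

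Lung genes were the list with the most positive median, 2.43 over 9 genes (1.76 without the batch term), and 0 of its genes had libraries apart. Both surfactant genes shown were high in a single library: Sftpc, a surfactant protein of lung, was at 3.9, 3.01 and 5.33 CPM in WT/WT and 2.23, 0 and 495 CPM in R249C/R249C, and its relative in function Sftpa1 at 1.72, 18.8 and 3.15 against 0.500, 0 and 175 CPM. Replicate 3 of R249C/R249C was far above the other 5 libraries in both. In the 6 libraries less that replicate and with no batch term, the list median was -0.16. Bpifa1, an abundant airway protein, was at 823, 639 and 1611 against 254, 1684 and 1901 CPM and overlapped.

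Genes of liver and digestive tract were mostly at lower mean levels in R249C/R249C, 18 of 20 for liver and 14 of 18 for stomach and intestine. Over all genes tested, 13786 of 26980 had a lower mean. Fga, the fibrinogen alpha chain, was at 5.35, 4.61 and 4.88 CPM in WT/WT and at 0 in all 3 R249C/R249C libraries, at least 495-fold lower, with an unadjusted p of 0.0177 and 0.00103. In the WT/R249C libraries Fga was at 0.790, 0, 12, 0.776 and 0 CPM. Apoh, a plasma apolipoprotein, was at 8.14, 6.76 and 4.83 against 0.679, 0.146 and 1.65 CPM (-2.88 and -2.99), Atp4a, of the gastric proton pump, at 27.1, 19.3 and 31.2 against 14.2, 10.9 and 8.45 CPM (-1.31 and -1.20), and Cela2a, a pancreatic elastase, at 13.6, 4.45 and 2.18 against 0.726, 0 and 0 CPM. All 4 genes were lower in every R249C/R249C library. They were the only ones to be so among the 20 liver, 18 gut and 14 exocrine genes tested, 2, 1 and 1 per list. The share over all genes was 3.95%. Apob and Apoc3, lipoprotein components that Fezf2 induces, were each at 0 throughout a group, Apob at 2.06, 0.184 and 0 CPM in R249C/R249C and Apoc3 at 0, 2.27 and 1.5 CPM in WT/WT. The medians were -0.07 for liver and 0.02 for gut with the batch term and -1.08 and -1.0 without it. Over 33 alternative analyses the liver median changed sign in 7 (-1.9 to 1.33) and the gut median in 17 (-1.22 to 3.12). Both the direction and the size of these medians thus rested on the design of the fit.

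Epidermal genes had a median of 0.51 over 17 genes (0.16 without the batch term), with Casp14 as above and Calml3, a calmodulin-like protein of keratinocytes, at 2.88, 14.3 and 17 against 15.3, 19.5 and 36.2 CPM. Calml3 overlapped narrowly. The keratins Krt1 and Krt10, of differentiating epidermis, overlapped at 4.6, 5.85 and 6.5 against 13.3, 2.35 and 6.52 CPM and at 42.5, 88.7 and 64.9 against 51.1, 33.5 and 60.3 CPM.

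**Figure D3:**
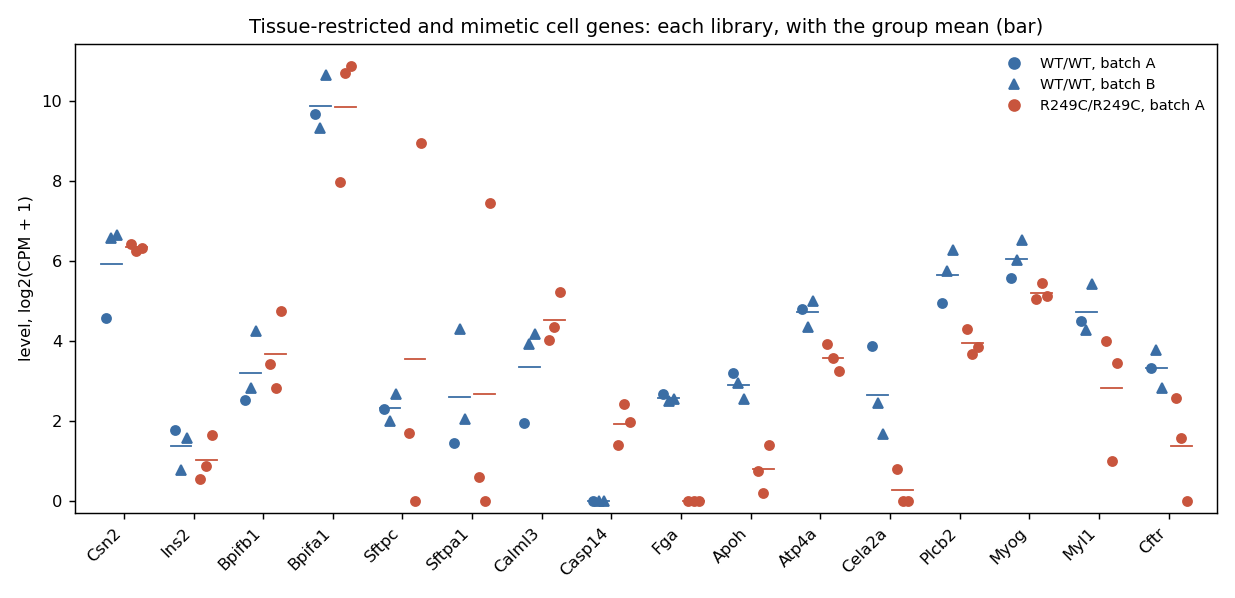
Level of 16 tissue-restricted and mimetic cell genes in each library, as log2(CPM + 1): blue for WT/WT, red for R249C/R249C, circles for batch A, triangles for batch B, bars for group means on this scale. Csn2, Ins2 and Bpifb1 overlap, Sftpc and Sftpa1 are high in R249C/R249C replicate 3 alone, and Fga, Apoh, Atp4a, Plcb2 and Myog are lower in all 3 R249C/R249C libraries.

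Mimetic cell genes leaned lower in mean level, 57 of 79 over the 6 lists together, beside 13786 of all 26980 genes tested. These means take no account of batch. With the batch term 32 fold changes were positive and 47 negative (median -0.24). Without it 22 were positive and 52 negative (median -0.4), and within batch A the median was 0.19. Of the 79, 9 were below in every R249C/R249C library and 3 above, beside 3.95% and 4.17% of all genes. The skeletal muscle list had 4 of these 9: Myog, a regulator of muscle differentiation, was at 46.9, 64 and 92.1 against 32.1, 42.6 and 34.1 CPM, and Myl1, a myosin light chain, at 21.6, 18.4 and 42.2 against 15, 0.990 and 9.93 CPM. Chrna1, the acetylcholine receptor subunit targeted in myasthenia gravis, was at 9.8, 13.7 and 8.61 against 7.16, 0.388 and 3.48 CPM, and Tnnt3, a troponin, at 5.66, 3.81 and 8.39 against 1.12, 0.214 and 1.85 CPM. Musk, the kinase of the nerve-muscle junction, lay the other way, at 0, 0 and 1.68 against 4.74, 6.67 and 1.97 CPM. None of these had an unadjusted p under 0.05 with the batch term, and Myog alone did without it (log2 fold changes of -0.59 and -0.89).

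The tuft list had medians of -0.33 and -0.36, but of 1.47 within batch A, and its median changed sign in 11 of 33 alternative analyses (-0.7 to 2.03). Its member Plcb2, a phospholipase of taste signalling, was lower in all R249C/R249C libraries at 29.7, 53 and 76 against 18.6, 11.9 and 13.5 CPM (-0.74 and -1.85), while the tuft regulator Pou2f3 overlapped at 22.7, 4.87 and 21.5 against 15.9, 0.0680 and 7.19 CPM. Ionocyte genes had 9 of 10 negative fold changes (median -1.64, and -1.12 without the batch term). They summed to 47.71, 29.98 and 65.48 CPM in WT/WT and 28.78, 15.5 and 21.42 CPM in R249C/R249C, without overlap but close. Cftr, the chloride channel of cystic fibrosis, was at 9.08, 12.8 and 6.08 against 4.96, 1.95 and 0 CPM, and the regulator Foxi1 at 7.66, 3.05 and 8.98 against 0, 0 and 10.4 CPM. Ciliated cell genes had a median of 0.21 (0.29), and Foxj1, their regulator, was at 15.7, 8.03 and 31.4 against 14.7, 2.32 and 19.3 CPM.

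**Figure D4:**
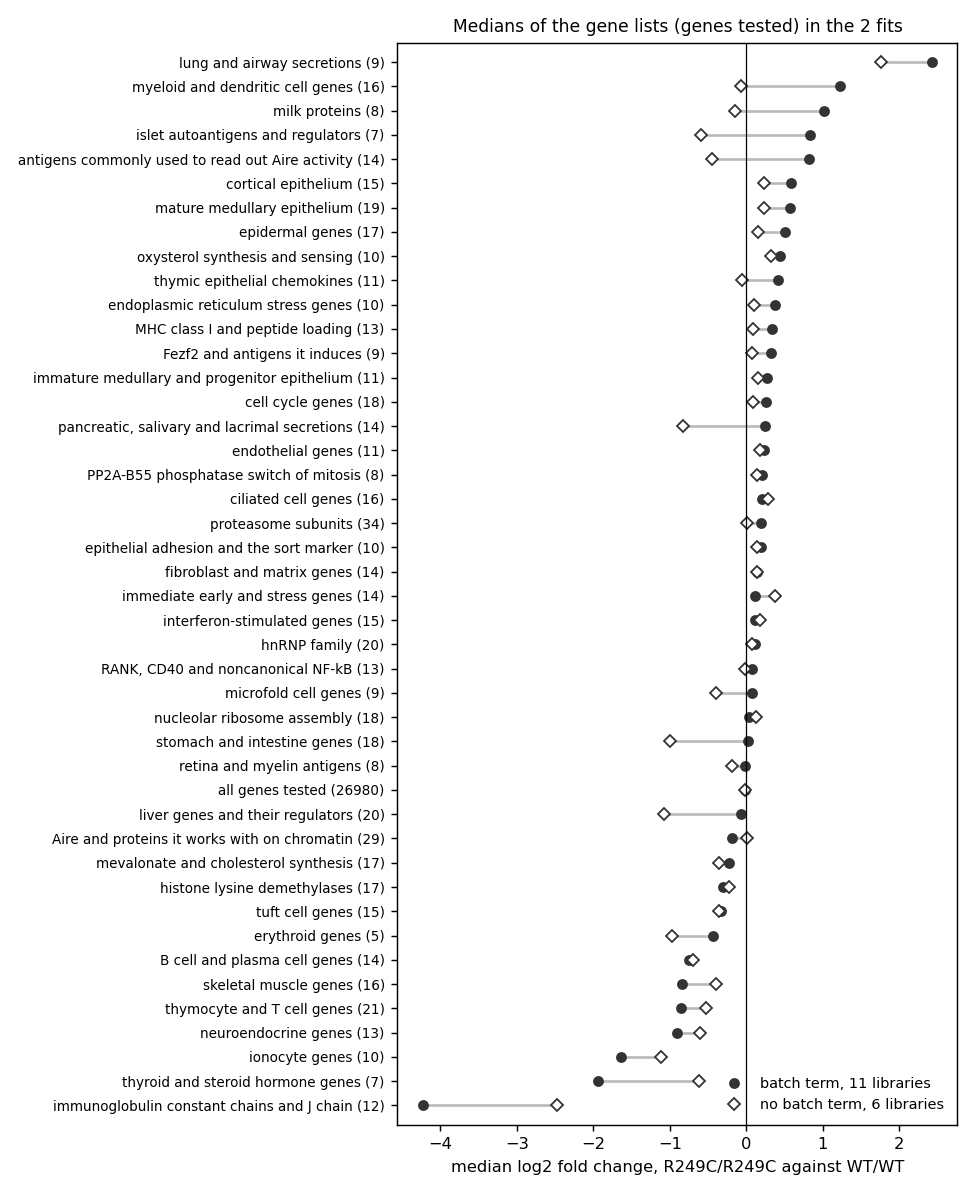
Median log2 fold change of R249C/R249C against WT/WT for each gene list (number of genes tested in brackets), with filled circles for the fit of 11 libraries with a batch term and open diamonds for the fit of 6 libraries without it. All tested genes sit near 0 in both; the immunoglobulin, ionocyte, thymocyte and B cell medians are negative in both, and those of Aire readout antigens, islet and milk genes change sign.

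Fezf1 (chromosome 6), a zinc-finger transcription factor related to Fezf2, was at 5.36, 5.46 and 14.3 CPM in WT/WT and at 0 in all R249C/R249C libraries, at least 954-fold lower, and at 5.04, 0.820, 0, 5.08 and 0 CPM in the WT/R249C libraries. Lrrn1 (chromosome 6), a leucine-rich repeat protein of neural cells, was at 21.9, 16 and 19.1 against 1.07, 2.65 and 1.85 CPM, with log2 fold changes of -2.99 (-4.94 to -1.04) and -3.35 (-4.60 to -2.11). Both were among the 5 lower genes of smallest p in the fit without a batch term.

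The fits with and without the batch term gave the same sign for 79.8% of the 23226 genes tested in both. At an unadjusted p under 0.05 there were 609 of these genes with the term and 618 without it, and 274 were shared, all 274 with the same sign. Of the 15 named higher genes 10 kept an unadjusted p under 0.05 without the batch term, and of the 15 named lower genes 13 did. Over all genes tested in that fit the share was 2.66%. Both fits hold the same 6 libraries, and the named genes were picked by their p. The shared genes and kept p-values are therefore no independent support. Within batch A, where a single WT/WT library stands against 3, the median log2 fold change of all genes was 0.21, and the values were 1.12 for Hnrnpdl, 1.19 for Hsd3b7, 0.82 for Hadhb, -1.18 for Ggps1, -1.40 for Gnptab and -2.69 for Igkc. All 6 had the sign of the other fits. In each of them WT/WT replicate 1 lay on 1 side of all 3 R249C/R249C libraries. Their sign within batch A was therefore fixed in advance and is no check on the batch.

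The breadth of expression did not differ beyond the spread. After thinning to 91946272 counts, at least 1 count was found for 24957, 24648 and 29998 genes in WT/WT and for 27798, 25901 and 25386 genes in R249C/R249C, a difference of -173 between the means, R249C/R249C less WT/WT (26362 ± 1270 in R249C/R249C and 26534 ± 3004 in WT/WT, SD, n = 3 and 3; exact permutation test, two-sided, p = 1.0, where the smallest possible is 0.1). Replicate 3 of WT/WT alone lay above all others, and without it the difference was 1559 (exact p = 0.2).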

How the data were processed

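For 11 libraries the authors deposited raw counts, whole numbers for each gene. HISAT2, StringTie and FastQC were used with build mm39, per the submitters' processing notes; versions are not given in the sources used here. Identifiers of 52073 of 56691 genes were matched to symbols through GENCODE M21, used for names and chromosomes only, and at least 99.7% of each library's counts fell on them. Libraries were grouped by title. In R 4.3.3, edgeR 4.0.16 (quasi-likelihood test, robust, TMM, filterByExpr, two-sided, Benjamini-Hochberg adjustment, threshold 0.05) was fitted to all 11 libraries with genotype and batch, and to the 6 libraries without batch. It was tested on simulated data. DESeq2 1.42.0 and limma 3.58.1 (voom) were run beside it. Alternatives covered the batch term, scaling, filters, contested labels, the replicate block and leaving out each library. Gene lists (43, with 624 of 628 entries in the table) are described by counts and medians; medians did not move with genes at 0 in a group set to the bound of 3 counts. No molecular identifiers were named, so floors cover counting error only. Named were Aire, the 15 genes of smallest unadjusted p per direction with the batch term and the 5 without it (mean at least 1 CPM, gene models left out), and in each list the first 2 members and the 5 of smallest p. The genotypes compared, the lists and the rules were chosen with earlier results of these data known.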

Additional observations from a re-analysis of the deposited data

How the results depend on the processing

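By edgeR and limma voom, 31 of the 33 alternatives called 0 genes, as the main analysis did. DESeq2 called 408 with the batch term and 128 with the 6 libraries and no batch term, the latter tried after the data were seen. Of the 408, 53 lay wholly above and 51 wholly below the WT/WT libraries, beside 4.17% and 3.95% of all genes. The calls and the separation come from the same libraries. The replicate numbers did not pair the libraries (correlations of the deviations of same-numbered libraries were -0.0338, 0.0286 and 0.0543). With the replicate block the count was again 0, with 1062 genes at an unadjusted p under 0.05 with the batch term and 536 without it. The Aire log2 fold change stayed positive in all 33 alternatives, from 0.05 to 1.26; the upper value came from the replicate block with the batch term. Leaving out each library, it ran from 0.17 to 0.89 with the batch term and from 0.05 to 0.80 without it. The difference in genes detected was -500 without thinning and 106 at a minimum of 10 counts, and -1116 to 1559 leaving out each of the 6 libraries. Genes whose libraries do not overlap numbered 2189, 2185 with library totals alone, 1611 at a mean of at least 1 CPM, and 4233 to 4967 leaving out each library, where fewer libraries have to separate. All 36 genes named for their p kept their sign in all 33 alternatives. These re-use the libraries by which the genes were picked, so the kept signs are no independent support. DESeq2 called 28 of the 36 with the batch term, where it called 0.63% of all genes higher and 0.997% lower. It called 15 of the 36 without the term, where it called 66 of 22712 genes higher and 62 lower. The same choice by p bears on these counts. Among the 43 lists, medians of the ionocyte, thymocyte, cortical, mature medullary and immunoglobulin constant lists kept their sign throughout. Without the batch term the cortical median came down to 0.08 without R249C/R249C replicate 2 and the mature medullary median to 0.02 without WT/WT replicate 1. A kept sign was not particular to these lists. The immature medullary, epithelial adhesion, immediate early, hnRNP, histone demethylase and PP2A-B55 medians kept theirs too, the hnRNP median at only 0.11. The tuft median changed sign in 11 alternatives. The Aire readout and islet medians changed sign in 11 alternatives each and milk in 9, chiefly those without a batch term, and the replicate block moved the B cell median to 0.94. The 6 libraries had totals of 91946272 counts or more. WT/R249C replicates 3 and 5, which enter the fit with the batch term, had 60560348 and 83119070. Replicate 3 had a TMM factor of 1.096, above those of the 6 libraries. The bearing of depth on the fold changes was not tested separately.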

Other observations

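Interferon-stimulated genes had 9 positive and 6 negative fold changes (median 0.12, and 0.18 without the batch term). Mx1, an antiviral GTPase, was at 8.0, 14.4 and 14.2 CPM in WT/WT and 14.4, 21.5 and 18.4 CPM in R249C/R249C (1.10 and 0.57). The highest WT/WT and the lowest R249C/R249C library were level in Mx1, and Isg15, a ubiquitin-like protein, overlapped at 237, 354 and 189.9 against 199, 301 and 237 CPM. Immediate early and stress genes had 9 of 14 positive fold changes with the batch term (median 0.12) and 11 without it (median 0.38). Fos was at 1446, 1614 and 1672 against 2137, 2272 and 1960.2 CPM and Zfp36, which destabilises cytokine messenger RNA, at 359.7, 555 and 601 against 778, 685 and 764 CPM, without overlap. Junb overlapped at 7749.6, 3505 and 3673 against 6061, 3621 and 3178 CPM. Such genes respond to tissue handling, and handling times of the libraries were not given in the sources used here. In the endoplasmic reticulum stress list (median 0.38 and 0.1), the cochaperone Dnajb9 was above in all R249C/R249C libraries, at 57.2, 100.1 and 90.4 against 137, 129 and 116 CPM, and Hspa5, the main chaperone, overlapped. In the cell cycle list (0.26 and 0.09), Mki67, a marker of proliferating cells, was at 28.9, 25.6 and 29 against 41.9, 30.6 and 32.6 CPM, without overlap, and Top2a, a topoisomerase, at 57.2, 6.1 and 58 against 38.8, 48.2 and 32.4 CPM, with overlap.

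In the neuroendocrine list (median -0.91 and -0.6), Ddc, which makes dopamine and serotonin, was at 5.48, 4.46 and 8.22 against 2.6, 2.25 and 0.400 CPM and Pcsk2, a prohormone convertase, at 3.89, 2.41 and 2.38 against 1.46, 0 and 0 CPM; both were lower in all R249C/R249C libraries. The regulator Insm1 overlapped at 23.1, 52.3 and 88.9 against 57.1, 20.9 and 48.8 CPM. Medians with and without the batch term were 1.02 and -0.15 for milk proteins, -1.94 and -0.62 for thyroid and steroid hormone genes, -0.02 and -0.18 for retina and myelin antigens, 0.24 and -0.83 for pancreatic, salivary and lacrimal secretions, and 0.07 and -0.4 for microfold genes. They were 0.32 and 0.07 for Fezf2 and its targets, 0.27 and 0.16 for immature medullary epithelium, 0.19 and 0.14 for epithelial adhesion, 0.08 and -0.01 for RANK, CD40 and NF-kB, 0.42 and -0.05 for chemokines, -0.43 and -0.97 for erythroid genes and 0.21 and 0.14 for the PP2A-B55 switch. No gene of these lists passed edgeR's adjusted test.

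Spread within R249C/R249C was no wider than within WT/WT: the median SD of log2(CPM + 1) over genes at 10 to 100 CPM was 0.4 in R249C/R249C and 0.45 in WT/WT, and at 1 to 10 CPM it was 0.69 and 0.81. WT/WT spans both batches and R249C/R249C does not. Genes whose libraries did not overlap were spread over the chromosomes. Among the autosomes they ran from 6.44% of the tested genes of chromosome 9 to 9.93% of those of chromosome 12. On chromosome 12, which holds the immunoglobulin heavy chains, 48 genes lay above and 57 below. The part of the heavy chains in this share was not tested.

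Transcripts of both sexes were found in every library, chosen for display after the values were seen. Xist, transcribed from the inactive X chromosome of females, was at 147, 117 and 146 CPM in WT/WT and at 130.3, 68.9 and 221 CPM in R249C/R249C. The Y-linked Ddx3y was at 55.9, 62.3 and 37.4 CPM in WT/WT and at 24.3, 60.7 and 18.7 CPM in R249C/R249C.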
